A study of Homo sapiens with 6 samples.

Results

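SMS encodes spermine synthase, and its RNA was nearly lost in the chemoresistant bladder cancer strain T24DDP. The mean scaled count was 3354 ± 262 (SD, n = 3) in T24 and 8.06 ± 2.06 (SD, n = 3) in T24DDP, a level 416-fold lower. SMS is 1 gene of the 2462 genes in the deposited table of T24DDP against T24, where it was found by its symbol. It was chosen by its difference between these same 6 libraries, and every gene of the table was selected on that contrast. The values of SMS are therefore given as a description, with no test, and intervals beside them show counting error only.

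T24 is an immortal line grown from a human bladder carcinoma. T24DDP, called T24-R in the paper, is a resistant strain derived from T24 by stepwise rising concentrations of gemcitabine and cisplatin with drug-free recovery between cycles. Each group had 3 RNA libraries of cultured cells, 1 parental line against 1 derived strain, and the labels do not say whether the libraries came from separate cultures. The study's methods describe replicates in general as biological and independent, without naming these libraries. The p-values set the difference between the groups against the spread between the libraries, whatever the source of that spread. No drug was named in the labels for the time of harvest.

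The scaled count is the number of reads on a gene divided by 1 size factor per library, as the authors deposited it. The size factors were 0.939 to 1.03 in T24 and 1.00 to 1.08 in T24DDP, and the listed genes took 1170731 to 1411926 reads of each library. T24DDP replicate 3 stood apart from its group. Over 981 genes with a mean scaled count of at least 100, its median absolute log2 difference from T24DDP replicates 1 and 2 was 0.33 and 0.32, against 0.09 between those replicates and 0.12 to 0.18 among the T24 libraries. The table holds selected genes, so a marker's presence or absence in it does not show which cells were sampled. Of 19 urothelial and epithelial marker genes 3 were listed, KRT19 with mean scaled counts of 174 in T24 and 0.326 in T24DDP, PPARG with 1282 and 397, and GATA3 with 1.73 and 42.3. Of 12 retina markers, checked because the protocol label names retinas, and of 5 leukocyte markers, 0 were listed. Of 3 endothelial markers PECAM1 was listed, with 1.74 in T24 and 27.6 in T24DDP, and of 4 fibroblast markers COL1A1, with 33.5 and 188. The part of these differences in the results on SMS was not tested.

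The polyamines putrescine, spermidine and spermine are small, positively charged amines that bind nucleic acids and are needed for growth. Ornithine decarboxylase (ODC1) makes putrescine from ornithine, and S-adenosylmethionine decarboxylase (AMD1) makes the donor of aminopropyl groups. Spermidine synthase (SRM) adds an aminopropyl group to putrescine, and spermine synthase adds a further one to spermidine, which gives spermine. Polyamines are acetylated by SAT1 for export or oxidation, and spermine is oxidised back to spermidine by SMOX.

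SMS (ENSG00000102172) lies on the plus strand of chromosome X of GRCh38, from 21940573 to 21994835 in the table. In GENCODE version 44 the gene starts 136 bases further downstream, and the canonical mRNA of 11 exons and 1703 bases codes for a protein of 366 residues. None of its exonic bases (0%) overlapped an exon of another gene. Of the 50-base stretches in its transcripts, 22.1% also occur in transcripts of 3 other genes without a symbol in that version. A part of the SMS reads could therefore be assigned differently by another counting rule. Whether those 3 genes were listed was not checked by identifier.

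The sequence before the transcription start is shown for SMS and for CXCL5, the first gene in the ranking by pattern on the log2(scaled count + 1) scale, because both had a T24DDP level near 0 but differed in base composition there. Each run holds the 250 bases before the RefSeq start in GRCh38.p14, on the strand of the gene, and capitals mark CG dinucleotides. The SMS run is chrX:21940459-21940708 on the plus strand, and its last 136 bases lie within the gene as the table bounds it. The CXCL5 run is chr4:73998678-73998927 on the minus strand.
SMS: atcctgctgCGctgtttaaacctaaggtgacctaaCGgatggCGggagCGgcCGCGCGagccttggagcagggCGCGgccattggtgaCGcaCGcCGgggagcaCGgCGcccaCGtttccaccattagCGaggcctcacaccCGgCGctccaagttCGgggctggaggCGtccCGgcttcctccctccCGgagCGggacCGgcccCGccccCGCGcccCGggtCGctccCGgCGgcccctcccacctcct
CXCL5: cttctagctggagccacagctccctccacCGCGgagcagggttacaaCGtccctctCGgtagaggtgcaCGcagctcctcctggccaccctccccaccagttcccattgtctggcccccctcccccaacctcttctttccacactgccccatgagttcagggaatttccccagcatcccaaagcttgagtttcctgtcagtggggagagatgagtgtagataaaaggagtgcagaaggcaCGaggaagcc

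The SMS run held 31 CG dinucleotides, more than 89.1% of 35116 promoter runs of the same length, whose median was 11. CXCL5, which encodes a neutrophil-attracting chemokine, held 6. The runs of APOO, ACOT9, PRDX4 and SAT1, genes within 2 Mb of SMS, held 31, 26, 25 and 25. Many CG dinucleotides were therefore not particular to SMS. The RefSeq starts used for ACOT9 and PRDX4 lie 23199 and 3231 bases inside these genes as the table bounds them. The runs of ACOT9 and PRDX4 therefore lie within the listed genes. The runs of CSAG1, MAGEA12 and RTL8B, other genes of the ranking by pattern, held 16, 5 and 12. The letters GGGCGG, a GC box read on both strands, occurred 1 time before SMS and in 42.6% of all runs. CCAAT, read on both strands, also occurred 1 time before SMS and in 32% of all runs. The E-box letters CACGTG were found 0 times before SMS and in 6.34% of all runs. The letters TATAAA, searched on both strands, were found 0 times before SMS and in 10.7% of all runs. These matches describe letters only, and methylation and factor binding were not measured.

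In the T24 libraries, SMS had scaled counts of 3532, 3476 and 3053. In T24DDP replicates 1, 2 and 3 it had scaled counts of 9.98, 8.31 and 5.88. All T24 libraries were high and all T24DDP libraries low, with no overlap, and the lowest T24 value was 306-fold above the highest T24DDP value. In reads, SMS had 3318, 3403 and 3154 in T24 and 10, 9 and 6 in T24DDP. The libraries of a group lay close together, and every T24DDP library kept a few reads. The SD was 7.82% of the mean in T24 and 25.6% in T24DDP, where counting error on so few reads is large.

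The limma fit across all listed genes, on log2(scaled count + 1), gave SMS a log2 fold change of -8.56 (standard error 0.19). The pseudocount of 1 understates the change of low values. The T24DDP libraries together held 25 SMS reads against 9875 in T24. After scaling by size factors the remaining level was 0.241% of that in T24 (95% exact binomial interval 0.156% to 0.355%, counting error only). Without T24DDP replicate 3, the library that stood apart, the log2 fold change was -8.37, so the near-loss of SMS RNA was also present in the other two libraries. In bulk RNA, fewer cells with SMS RNA and less SMS RNA per cell cannot be told apart.

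Per length, SMS was among the more abundant listed genes of T24. Its mean scaled count per kilobase was 1553 in T24, rank 50 of 2462, where the median listed gene had 8.64. In T24DDP it was 3.73 per kilobase, rank 2084, where the median was 21.0. The 721 listed genes with a negative log2 fold change had a median of -1.31, so most listed losses were far smaller than that of SMS.

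**Figure D1:**
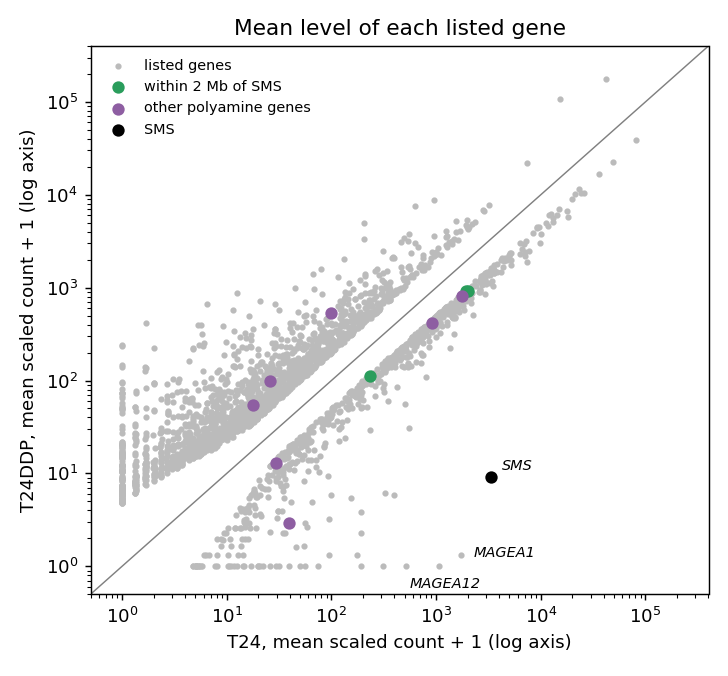
Mean scaled count + 1 of each listed gene in T24 (horizontal, log axis) and in T24DDP (vertical, log axis), with the line of equal levels; grey points are all 2462 listed genes. SMS lies far below the band of lower genes, at 3354 in T24 and 8.06 in T24DDP.

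Strong expression in T24 with near-absence in T24DDP was uncommon in the table. Of 254 listed genes with a T24 mean of at least 1000, 3 had a T24DDP mean of at most 10, and these were SMS, MAGEA1 and MAGEA12. MAGEA1 and MAGEA12 are cancer-testis antigens of the distal long arm of chromosome X, and SMS had the highest T24 mean of the 3. The next of the 254 by log2 fold change was KITLG, the ligand of the receptor KIT, with a mean of 1363 in T24 and 224 in T24DDP (log2 fold change -2.63). In the opposite direction, 0 of 195 genes with a T24DDP mean of at least 1000 had a T24 mean of at most 10. These limits of 1000 and 10 were set after the values of SMS were seen.

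None of the other core polyamine genes was in the table. ODC1, SRM, AMD1, SAT1, SMOX, PAOX (the oxidase of acetylated polyamines) and AZIN2 (an antizyme inhibitor) were looked for by symbol and by identifier, and 0 of 7 were listed. A gene outside the table did not pass the authors' thresholds, which does not show that its level was the same in both groups. Of 4 synthesis genes SMS was the 1 listed, and of 5 catabolic genes and 5 antizyme and inhibitor genes 0 were listed. Over all 59 genes of the polyamine lists, 8 were listed, SMS included, and 51 were not. The share of all annotated genes that the table holds was not computed. These counts therefore do not show that polyamine genes were listed more or less often than other genes.

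The other 7 listed genes were all called in the limma fit, which means a Benjamini-Hochberg adjusted p under 0.05 over the table and a log2 fold change beyond 1. Of these 7 genes, 4 were called lower in T24DDP and 3 higher. Among all genes tested, 29.2% were called lower and 69.2% higher, and since the table was selected on this contrast, nothing is read from the count. Rescaled by TMM factors, which take most genes as equal, 721 genes were called lower and 585 higher, against 718 and 1703 as deposited.

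EIF5A2 encodes an isoform of the translation factor eIF5A, whose hypusine residue is built from spermidine. Its scaled counts were 943, 907 and 905 in T24 and 419, 410 and 418 in T24DDP. The log2 fold change was -1.14 (standard error 0.10). DHPS and DOHH, the enzymes that make hypusine, and EIF5A were not listed.

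ADI1 encodes a dioxygenase of the methionine salvage pathway, which recycles the methylthioadenosine released by SRM and SMS. Its scaled counts were 1883, 1715 and 1648 in T24 and 822, 752 and 847 in T24DDP, 2.17-fold lower in the mean (log2 fold change -1.11, standard error 0.11). With TMM factors the log2 fold changes of EIF5A2 and ADI1 were -2.49 and -2.47. MTAP, which takes the first step of that pathway, was not listed. IL4I1, a secreted amino acid oxidase placed in the same list, had few reads. Its scaled counts were 20.2, 13.3 and 16.5 in T24 and 59.9, 61.0 and 39.2 in T24DDP (log2 fold change 1.61, standard error 0.28), and with TMM factors it was not called (0.31).

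Of the 8 genes of ornithine and arginine supply, ASS1, ARG2 and AGMAT were listed. ASS1, argininosuccinate synthase, makes the precursor of arginine and had the highest T24DDP level per length of the 3. Its scaled counts were 100.1, 100.1 and 92.9 in T24 and 544, 508 and 539 in T24DDP, a level 5.43-fold higher (log2 fold change 2.43, standard error 0.12). ARG2, the mitochondrial arginase that forms ornithine, had scaled counts of 35.1, 22.5 and 17.4 in T24 and 97.8, 82.2 and 112.6 in T24DDP. Its mean was 3.90-fold higher in T24DDP (log2 fold change 1.97, standard error 0.28), but with TMM factors it was not called (0.65). ASS1 remained called with TMM factors (1.08).

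AGMAT is annotated as an agmatinase, an enzyme class that forms putrescine from agmatine. It had 37, 40 and 36 reads in T24 and 0, 3 and 3 in T24DDP, so its T24DDP level was 5.05% of that in T24 (95% exact binomial interval 1.81% to 11.3%, counting error only). Of 15 polyamine transport genes 1 was listed, SLC22A3, an organic cation transporter. SLC22A3 had scaled counts of 34.1, 29.6 and 22.3 in T24 and 12.0, 15.7 and 7.83 in T24DDP (log2 fold change -1.24, standard error 0.32). Its log2 fold change was -2.50 with TMM factors, and its call was lost without T24DDP replicate 3 (-0.99).

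**Figure D2:**
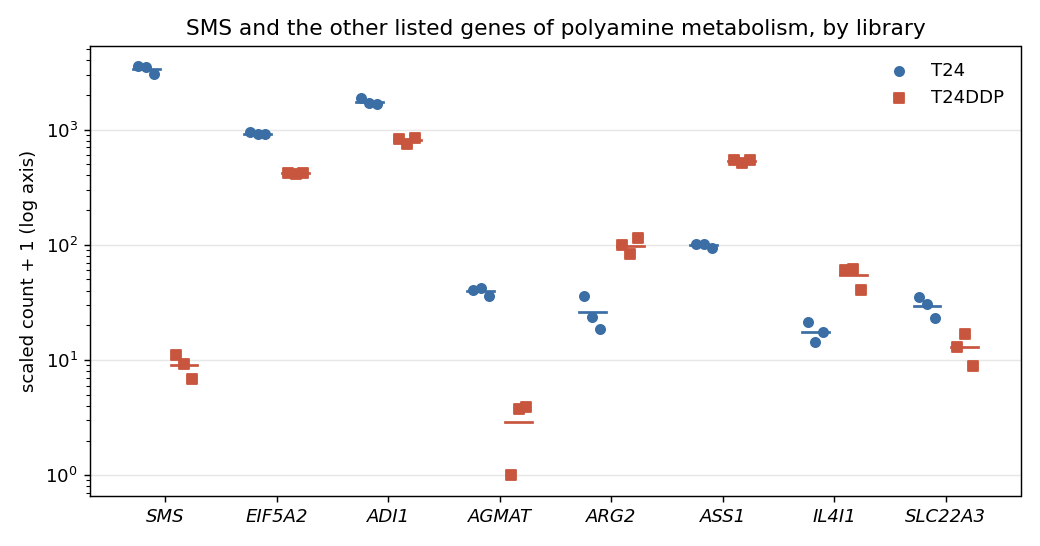
Scaled count + 1 (log axis) of SMS and the 7 other listed genes of the polyamine lists, with 1 point per library and a bar at the arithmetic mean of each group (3 libraries each). In each of the 8 genes the T24 and T24DDP points do not overlap, and the widest gap is that of SMS. The genes of the table were selected on this contrast, and the share of all listed genes without overlap was not computed. Nothing is therefore read from the lack of overlap.

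On chromosome X, listed genes close to SMS were lower in T24DDP, but by a much smaller amount. Within 2 Mb of the start of SMS the table listed 3 other genes, PRDX4, ACOT9 and APOO, at 1.72, 1.76 and 1.89 Mb downstream. All 3 of them were called lower and 0 higher, where 29.2% of all listed genes were called lower. Lower values were common along the whole chromosome, however. Of the 152 listed genes of chromosome X other than SMS, 114 had negative log2 fold changes, with a median of -1.24 among those 114. With T24DDP replicate 3 left out, APOO was no longer called (log2 fold change -0.88) and 2 of the 3 were.

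PRDX4, a peroxiredoxin of the endoplasmic reticulum, had scaled counts of 2208, 1988 and 1800 in T24 and 843, 913 and 1007 in T24DDP (log2 fold change -1.12, standard error 0.12). ACOT9, a mitochondrial acyl-CoA thioesterase, had 2018, 1853 and 1914 in T24 and 885, 865 and 979 in T24DDP (log2 fold change -1.08, standard error 0.10). APOO, a subunit of the mitochondrial MICOS complex, had 239.5, 248 and 215 in T24 and 129.7, 123 and 80.3 in T24DDP (standard error of its log2 fold change 0.20). The mean level of PRDX4, ACOT9 and APOO was 2.17-, 2.12- and 2.11-fold lower in T24DDP. With TMM factors the log2 fold changes of PRDX4, ACOT9 and APOO were -2.47, -2.44 and -2.44, and that of SMS was -9.82. As deposited, those of the 3 neighbours lie close to the table's own threshold, so neighbours with smaller differences would not be listed.

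GENCODE version 44 places 19 protein-coding genes within 2 Mb of the start of SMS, SMS included, of which 4 were listed and 15 were not. The share listed among all annotated protein-coding genes was not computed, so the count is a description only. The protein-coding genes next to SMS on either side, YY2 and MBTPS2 upstream and PHEX downstream, were among those not listed. SAT1, the acetyltransferase of polyamine catabolism, lies 1.84 Mb downstream, between ACOT9 and APOO, and was not listed either. The nearest listed gene upstream was MAP3K15, a protein kinase gene at -2.58 Mb, with a mean scaled count of 14.1 in T24 and 1.66 in T24DDP.

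The listed genes nearest to SMS were few. Within 1 Mb 0 others were listed. Within 5 Mb there were 6 other listed genes, 5 called lower and 1 higher. Within 10 Mb there were 19, of which 14 were called lower and 5 higher, and the lower ones had log2 fold changes from -2.73 (MAP3K15) to -1.05, with a median of -1.13. Over the 152 listed genes of chromosome X other than SMS, 114 had negative and 38 positive values, and the median of the negative ones was -1.24. The SMS value of -8.56 thus stood well outside the values of all listed genes within 10 Mb. Only RNA was examined here, and copy number, sequence changes and methylation at SMS were not tested. The paper also describes mass spectrometry of proteins from T24 and T24-R, which was not used here, so SMS protein was not examined.

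**Figure D3:**
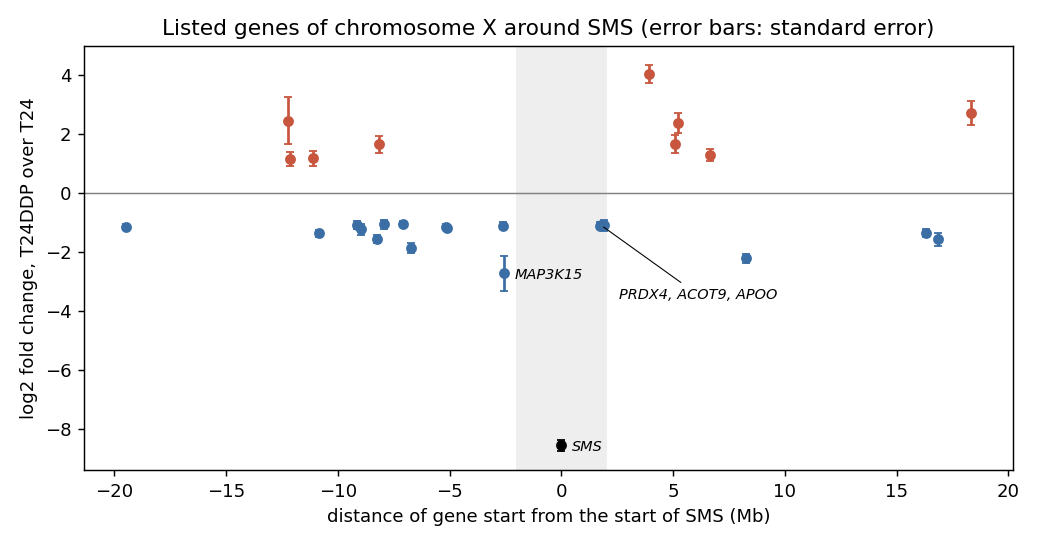
Log2 fold change of T24DDP over T24 (vertical, error bars are standard errors of the limma fit) against the distance of each gene's start from that of SMS in Mb (horizontal), for listed genes of chromosome X within 20 Mb. Blue points are lower and red points higher in T24DDP, the grey band marks 2 Mb on each side, and SMS at -8.56 lies far below its neighbours in the band at -1.12 to -1.08.

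The listed genes with a mean scaled count of at least 100 were ranked by how closely their pattern followed SMS. The measure was the root mean square difference over the 6 libraries of log2(scaled count + 1), taken relative to the gene's mean in T24. On this scale the 5 likest genes were CXCL5 (0.31), CSAG1 (0.38), MAGEA12 (1.07), MAGEA1 (1.42) and RTL8B (1.76). CSAG1, MAGEA12, MAGEA1 and RTL8B lie on chromosome X, 113 to 131 Mb from SMS, and CXCL5 lies on chromosome 4. Many listed genes share the step between the groups, so this ranking mainly orders genes by the size of that step. The order depends on the pseudocount, since CXCL5, CSAG1 and MAGEA12 had 0 reads in T24DDP. With log2(scaled count + 0.1) the log2 fold change was -8.71 for SMS, -11.59 for CXCL5, -12.34 for CSAG1 and -6.50 for RTL8B, so that RTL8B was then the nearer to SMS. With edgeR the same 4 genes had -8.68, -11.29, -12.03 and -6.31.

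CXCL5 had scaled counts of 289.5, 298 and 342 in T24 and 0 in each T24DDP library, so its level was at least 322-fold lower. CSAG1 had 568, 530.2 and 458 in T24 and 0 reads in T24DDP, at least 535-fold lower. MAGEA12, with 1182, 1029.7 and 954 in T24 and 0 reads in T24DDP, was at least 1089-fold lower. These bounds were set against a floor of 3 reads over the T24DDP group. MAGEA1 had 1883, 1655 and 1666 in T24 and 1 read in all T24DDP libraries together. RTL8B, a gene derived from a retrotransposon, had scaled counts of 382, 376 and 421 in T24 and 5.99, 1.85 and 6.85 in T24DDP, 80.3-fold lower. Some MAGEA, CSAG and RTL8 genes have near-identical copies. Shared stretches were counted for SMS only, so the values of MAGEA1, MAGEA12, CSAG1 and RTL8B are uncertain on this point.

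**Figure D4:**
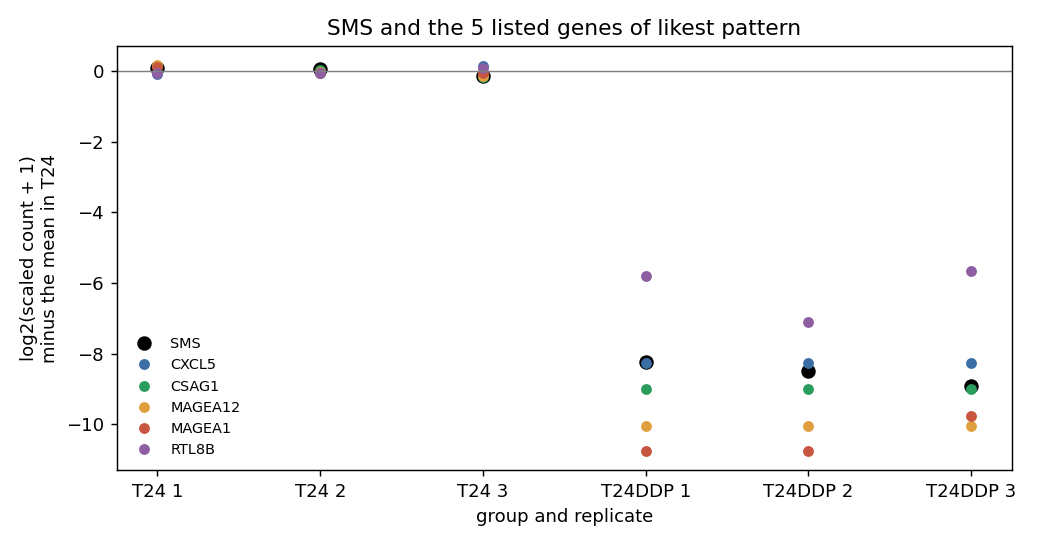
Log2(scaled count + 1) minus the gene's mean in T24 (vertical) in each of the 6 libraries (horizontal) for SMS and the 5 genes of likest pattern. In the T24 libraries all 6 genes lie near 0, and in T24DDP the SMS points are, with this pseudocount of 1, closest to those of CXCL5 and CSAG1, with RTL8B above and MAGEA1 below.

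Of these 6 genes, SMS and RTL8B had reads in every T24DDP library. The remaining level was 0.241% for SMS (interval 0.156% to 0.355%) and 1.23% for RTL8B (0.684% to 2.03%). It was 0.0186% for MAGEA1, from 1 read (95% exact binomial interval 0.00047% to 0.104%). MAGEA12 had 3104 reads in T24 and 0 in T24DDP, which allows up to 0.0918%, and the same limit was 0.187% for CSAG1 and 0.311% for CXCL5. The genes were chosen by their difference between these libraries, so the shares are given side by side with no test of their order. What the remaining SMS reads derive from was not tested.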

How the data were processed

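RNA-seq of T24 and T24DDP (3 libraries each) was analysed from 1 deposited table. According to the methods, the authors ran fastp, aligned reads to GRCh38 with HISAT2, counted them per gene with featureCounts and tested with DESeq2. The labels name the mouse build mm9, but the table holds human identifiers. The annotation and the strand setting are not given in the sources used here. The signal values of the deposited table are reads per gene after division by a size factor for each library. All values (100%) were whole multiples of 1 step within 0.01, so reads were recovered. Gene lengths are other values of the table as deposited. The authors' group means, fold changes and p-values were not used, and 0 columns of per-library values were left unused.

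limma 3.58.1 in R 4.3.3 (lmFit, eBayes with trend) was fitted to log2(value + 1) of all 2462 genes, with Benjamini-Hochberg adjustment. Calls needed an adjusted p under 0.05 and a log2 fold change beyond 1. Alternatives were TMM factors, no trend, a mean of at least 10, other pseudocounts, a replicate block, edgeR 4.0.16 and DESeq2 1.42.0 on the reads, other windows, and leaving out each library. Scripts were tested on simulated data. Genes named were SMS, listed polyamine genes, listed genes within 2 Mb and the 5 of likest pattern. KITLG, MAP3K15, the listed marker genes and the genes outside the table were named after their values or absence were seen. The members and lists were chosen with earlier results of these data known. The sequences before gene starts are from RefSeq (GRCh38.p14).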

Additional observations from a re-analysis of the deposited data

How the results depend on the processing

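The log2 fold change of SMS was -8.56 and moved by more than the spread between replicates with TMM factors computed on the table (-9.82) and with a pseudocount of 10 (-7.54). It was -8.68 with edgeR and -8.70 with DESeq2, and -8.71 to -8.37 with each library left out in turn. TMM shifted the median log2 fold change of all listed genes by -1.31, because TMM takes most genes as equal and this table holds selected genes, and lowered the number of genes called higher from 1703 to 585. The number of listed neighbours called lower was 3 within 2 Mb, 0 within 1 Mb and 5 within 5 Mb, and the number called higher was 0, 0 and 1. With each library left out, 2 to 3 neighbours were called lower, 0 higher, and 6 to 7 of the 7 polyamine genes were called, while 571 to 699 genes of the table were called lower and 1628 to 1667 higher. SLC22A3 was also not called with a pseudocount of 10 (-0.83). The direction of SMS, the 7 polyamine genes, the 3 neighbours and the 5 genes of likest pattern was kept under each alternative run, but the order of those 5 by likeness to SMS depends on the pseudocount.

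With the replicate number as a block, the log2 fold change of SMS was -8.56, 3 neighbours were called lower and 0 higher, 7 polyamine genes were called, and 719 and 1704 genes of the table were called lower and higher. Deviations of same-numbered libraries from their group means correlated across 981 genes by 0.342, 0.0786 and 0.394. Between libraries of different numbers the correlations were -0.385 to 0.277. For each T24 library the same-numbered value was the highest, but for T24 replicate 2 only by 0.0786 against 0.0721. Seen from T24DDP replicate 2, the highest value was instead 0.277, with T24 replicate 1. Whether the numbers mark pairs was not tested, and the main fit did not use them. Some values rest on few reads. SMS had 6 to 10 reads per library in T24DDP, and the lowest library held 13 reads of IL4I1, 18 of ARG2, 8 of SLC22A3 and 0 of AGMAT. Total library depth is unknown.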
